A study of Mus musculus with 2 samples.

Results

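Collagen chains are described here in myotubes grown from the mouse line C2C12 and exposed to exosomes, which are vesicles shed by cells. The members are all probes whose gene name is Col, a number, the letter a and a number, that are not control spots and that lie in both scanner files. They were 91 of 56605 probes and represented 44 of 37304 gene names. The choice used names only and no measured value. Col21a1, which a list of mouse collagen genes by class also held, had no probe under this rule and was not analysed here.

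Collagens are proteins of the matrix around cells, in which 3 chains wind into a triple helix. Each helical stretch repeats a unit of glycine followed by a pair of other residues, often proline and hydroxyproline, because only glycine fits into the centre of the helix. Fibrillar collagens give tendon and connective tissue their strength, type IV collagen forms the network of basement membranes that wrap each muscle fibre, and type VI collagen forms beaded filaments next to them. FACIT collagens attach to the surface of fibrils, and transmembrane collagens sit in the cell membrane. In muscle these proteins are made largely by fibroblasts, but myoblast lines also express several of them.

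The tested culture received 4 µg of exosomes of a KPC line for 24 h (KPC-exo, 1 array). That line came from a pancreatic tumour of mice that carried, among other alleles, Trp53 LSL-R172H/+ and Pdx1-Cre, in which the Pdx1 promoter drives Cre in pancreatic epithelium. The control culture received exosomes of MPDC, a mouse pancreatic ductal epithelial line, for 24 h (MPDC-exo, 1 array), at a dose that the sources used here do not give. Both cultures were C2C12, a clonal myoblast line, differentiated in 2% horse serum, and the lines that supplied the exosomes were grown in different media, with 20% serum for KPC and 10% serum for MPDC. No culture without exosomes was analysed here. With 1 array per group, every difference below lies between 2 arrays, has no replicate and was not tested.

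RNA was measured by 1-colour hybridization to probes of 60 bases. A level below is the log2 processed signal of a probe minus the 75th percentile of its array, which was 639 units on the KPC-exo array and 380 units on the MPDC-exo array. A difference is the KPC-exo level minus the MPDC-exo level, on the log2 scale. Signals in units are given before this scaling, so that equal units on the arrays mean a lower level on the KPC-exo array. A gene takes the value of its brightest probe and counts as measured if both arrays had it well above background, as 16989 of 37304 genes were. Levels of different probes are not set against each other, since probes differ in how well they bind. All 8 muscle markers were measured, with Myog at levels of 5.59 in KPC-exo and 5.74 in MPDC-exo myotubes and Myh3 at 5.92 in KPC-exo and 6.08 in MPDC-exo myotubes. Of 8 epithelial markers, which could come from the exosomes' source cells, 6 were well above background on neither array, Epcam, Cdh1, Krt7, Krt8, Krt18 and Cldn4.

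The sequence of the collagen repeat can be read directly in the probes that fall within a triple helix. A glycine codon reads GGN, and where it recurs every 9 bases it spells the unit of glycine and a pair of other residues. The pattern searched was GGNNNNNNN repeated through the whole probe, in at least 6 consecutive units. It was found in 4 of the 91 collagen probes and in 9 of all 56605 probes, or 0.0159%, and in 0 probes on the reverse strand. The remaining 5 probes belong to genes outside the rule, among them Scara5 and Fcnb, whose proteins carry collagen-like stretches. Other collagen probes may lie partly in a helix, since the search required the repeat through the whole probe. The 4 collagen probes are shown because the repeat runs unbroken through them, with the recurring glycine codons in capitals.
Col5a3 (chr9:20590066-20590795, minus strand, mm9): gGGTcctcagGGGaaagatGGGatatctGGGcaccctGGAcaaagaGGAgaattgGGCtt
Col6a3 (chr1:92689602-92690594, minus strand, mm9): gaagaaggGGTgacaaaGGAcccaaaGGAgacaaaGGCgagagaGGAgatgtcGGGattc
Col11a2 (chr17:34189287-34189453, plus strand, mm9): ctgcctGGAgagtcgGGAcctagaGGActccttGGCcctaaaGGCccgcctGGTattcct
Col15a1 (chr4:47283786-47283845, plus strand, mm9): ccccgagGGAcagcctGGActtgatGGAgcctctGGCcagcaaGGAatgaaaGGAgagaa
The first 3 of these probes cover more than 60 bases of the genome, so they cross from exon to exon. Of the 4, the Col6a3 probe alone was measured. It is not the brightest probe of that gene, and its value is given with the other probes of Col6a3.

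Of the 44 collagen genes, 28 were measured, 5 were well above background on 1 array only and 11 on neither. Across all 37304 genes, 45.5% were measured. The measured collagens differed little between the arrays. Col6a5 alone had a KPC-exo level 1.5-fold or more above that of MPDC-exo, and 0 collagens lay that far below. Among all measured genes, 3.73% lay at least that far above and 3.70% below. None of the 28 was 2-fold apart in either direction, against 0.730% of all measured genes higher and 1.19% lower. The median difference of the 28 was 0.12, against 0.06 over all 16989 measured genes. Of the 28, 20 had a difference above 0, against 58.9% of all genes, and 16 of 28 lay above the median of all genes. With each array centred on its median in place of the 75th percentile, 16 were above 0. RNA of the whole culture was measured, so fewer cells that make a collagen and less of its RNA per cell cannot be told apart.

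**Figure D1:**
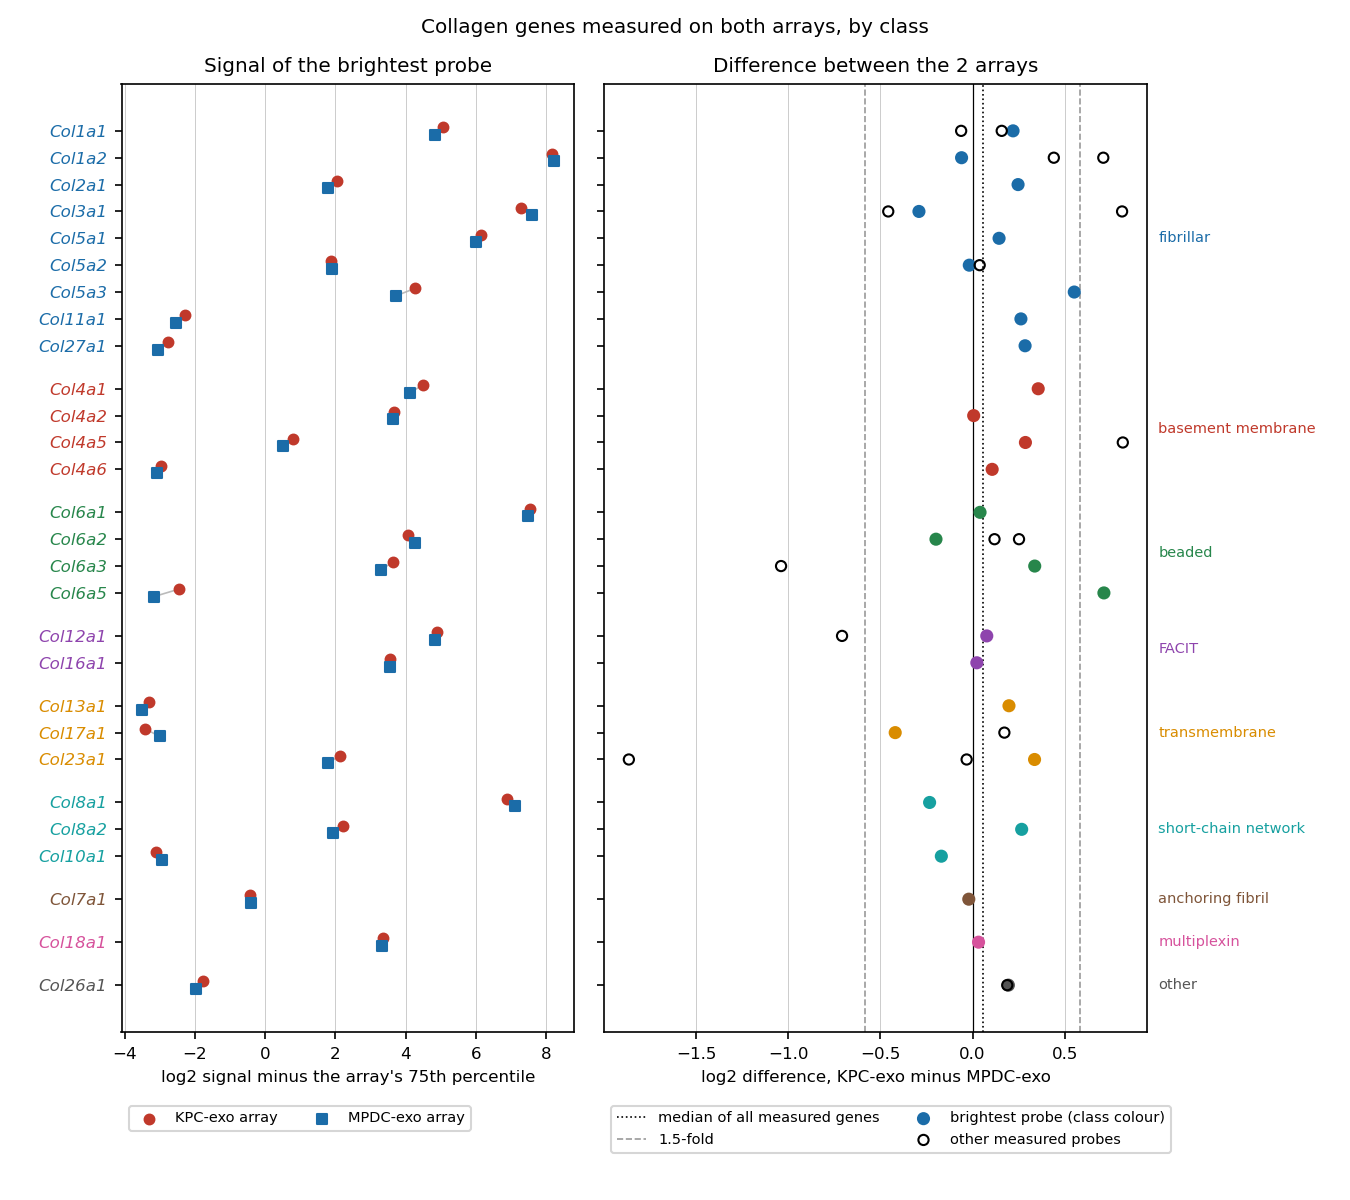
Left, level of the brightest probe of each measured collagen gene on the KPC-exo array (circles) and the MPDC-exo array (squares), as log2 signal minus the array's 75th percentile. Right, the log2 difference, KPC-exo minus MPDC-exo, with other measured probes of the same gene as open circles, the median of all measured genes (0.06) dotted and 1.5-fold dashed. Of the 28 brightest probes only that of Col6a5 lies beyond a dashed line, while open circles of Col1a2, Col3a1, Col4a5, Col6a3, Col12a1 and Col23a1 do.

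The spread between probes of a gene and that over all genes give a scale for these differences, and both compare 1 culture of each group. Over 5736 genes with at least 2 measured probes, the differences of probes of the same gene had a pooled SD of 0.36. The interquartile range of all measured genes ran from -0.12 to 0.23. Measured genes were split by signal into 4 bins of equal size, and dim genes scattered most: 17.5% of the dimmest bin were at least 1.5-fold apart in either direction, 7.94% of the next, 2.68% of the one after and 1.62% of the brightest. Of the 28 collagens, 12 were in the brightest bin and 8 in the dimmest. The 12 bright ones ranged from -0.29 to 0.55 with a median of 0.03, and the 8 dim ones from -0.42 to 0.71 with a median of 0.20.

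**Figure D2:**
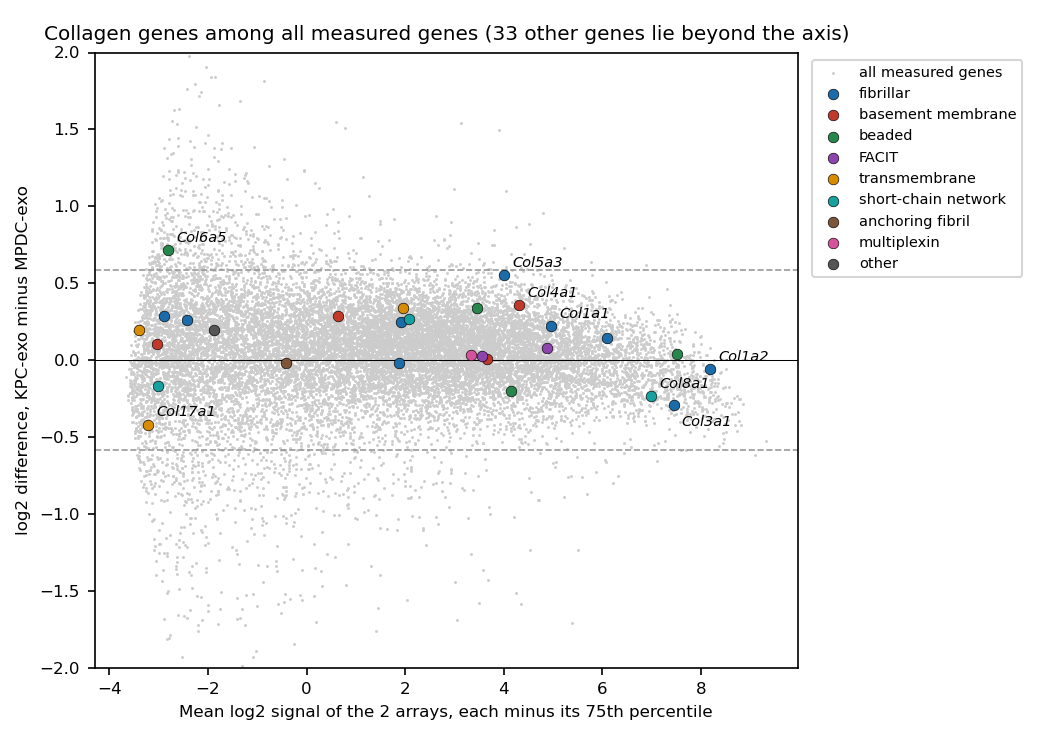
Log2 difference, KPC-exo minus MPDC-exo, against the mean log2 signal of both arrays for 16989 measured genes (grey) and the 28 measured collagen genes (coloured by class), with 1.5-fold dashed. The collagens lie within the cloud of all genes at every signal, and Col6a5, the one beyond 1.5-fold, lies at the dim end where the cloud is widest. The axis ends at 2 in both directions, beyond which lie 33 genes and no collagen.

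Among the fibrillar collagens, 9 of 11 genes were measured, and their differences ran from -0.29 to 0.55 with a median of 0.22. None was 1.5-fold apart. Col1a1 and Col1a2 encode the chains of type I collagen, the main fibrillar collagen of tendon, bone and skin. Col1a1 had a level of 5.06 in KPC-exo myotubes and 4.84 in MPDC-exo myotubes, a difference of 0.22. Col1a2 had 8.16 in KPC-exo and 8.22 in MPDC-exo myotubes, a difference of -0.06 that was 0.14 with quantile normalization. The partner chains thus lay 0.28 apart in their differences. The pooled SD of probes about the mean of their gene, 0.36, is only a rough scale for that gap. It covers single probes of genes at every signal. Both chains were in the brightest bin, where the differences of all genes had an SD of 0.25.

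Col1a1 also gives the clearest view of spot error, because 2 of its probes were printed 10 times on each array. At the upstream probe, on chromosome 11 from 94813075 to 94813134 (mm9), the 10 spots gave 20257 to 22230 units in KPC-exo and 10388 to 11477 units in MPDC-exo myotubes. Scaled to each array, the SD of the spots was 0.05 on both arrays, and the mean levels were 5.06 in KPC-exo and 4.84 in MPDC-exo myotubes. The scaled spots of the arrays did not overlap. The downstream probe, from 94813115 to 94813174, shares 20 bases with it and gave levels of 4.61 in KPC-exo and 4.45 in MPDC-exo myotubes, a difference of 0.16, with an SD of 0.04 on both arrays. Another measured probe, assigned to an Ensembl transcript and lying further along, from 94814188 to 94814247, had a difference of -0.06. The last probe, of a different Ensembl transcript, was well above background on neither array.

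**Figure D3:**
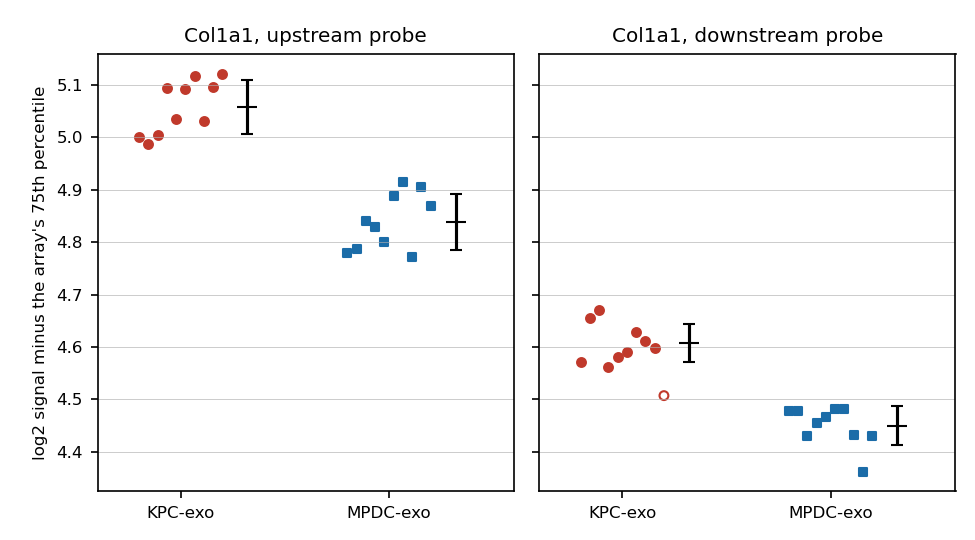
Level of each of the 10 spots of the 2 repeated Col1a1 probes, as log2 signal minus the array's 75th percentile, on the KPC-exo array (circles) and the MPDC-exo array (squares), with the mean and SD of the spots beside them. The open circle is a spot flagged as an outlier and left out. The kept spots of each probe lie higher on the KPC-exo array, by 0.22 at the upstream and 0.16 at the downstream probe.

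Col3a1, the type III chain found with type I in soft tissues, had levels of 7.30 in KPC-exo and 7.59 in MPDC-exo myotubes. Its difference of -0.29 was the lowest of the fibrillar class. The type V chains, which set fibril diameter, had differences from -0.02 to 0.55. Col5a3 had 4.28 in KPC-exo and 3.72 in MPDC-exo myotubes, a difference of 0.55 that was higher than those of 95.6% of all measured genes. Col5a1 had 6.16 in KPC-exo and 6.01 in MPDC-exo myotubes, a difference of 0.14. Col5a2 had 1.87 in KPC-exo and 1.89 in MPDC-exo myotubes, a difference of -0.02. The Col5a3 value rests on 1 of its 2 probes, on chromosome 9 from 20574592 to 20574651, and was 0.63 with normexp background correction, just past 1.5-fold. Its other probe, the one with glycine codons printed above, was well above background on neither array. Col3a1 and Col5a2 are neighbours on chromosome 1.

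Of the fibrillar chains of cartilage, Col2a1 and Col11a1 were measured. Col2a1, the type II chain of cartilage, had 2.04 in KPC-exo and 1.80 in MPDC-exo myotubes, a difference of 0.25. Col11a1, which joins type II in cartilage fibrils, had -2.29 in KPC-exo and -2.55 in MPDC-exo myotubes, a difference of 0.26, or -0.01 with normexp. Col27a1, a minor fibrillar chain, had -2.76 in KPC-exo and -3.04 in MPDC-exo myotubes, a difference of 0.28 that was -0.08 with normexp. Col24a1 was well above background with KPC-exo only, with 99.8 units there and 30.4 units in MPDC-exo myotubes, which bounds it at 1.91-fold or more higher. The local background of that spot was flagged as non-uniform on the KPC-exo array, and its part in the value was not tested. The other probe of Col24a1 was well above background on neither array. Col11a2 was well above background on neither array.

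Of the 6 basement membrane chains, 4 were measured, with differences from 0.01 to 0.36 and a median of 0.20, and none was 1.5-fold apart. Col4a1 and Col4a2 encode the chains that make up the common type IV network, and they lie next to each other on chromosome 8. Col4a1 had 4.49 in KPC-exo and 4.13 in MPDC-exo myotubes, a difference of 0.36, the highest of the class at its brightest probe. Col4a2 had 3.66 in KPC-exo and 3.65 in MPDC-exo myotubes, a difference of 0.01. Each has 1 probe, so the gap of 0.35 between these partners cannot be set apart from the spread between probes.

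Of the minor type IV chains, Col4a5 and Col4a6 were measured. Col4a5, whose chain belongs to the specialised basement membranes of kidney and other tissues, had 0.79 in KPC-exo and 0.50 in MPDC-exo myotubes, a difference of 0.29. Its other measured probe, on chromosome X from 138122995 to 138123054, had a difference of 0.81. Col4a6, its neighbour on chromosome X, had -2.97 in KPC-exo and -3.08 in MPDC-exo myotubes, a difference of 0.11 that was -0.17 with normexp. Col4a4 was well above background with KPC-exo only, with 58.6 units there and 14.6 units in MPDC-exo myotubes, a bound of at least 1.12-fold higher. That probe is assigned to an Ensembl transcript, and the other probe of Col4a4 was well above background on neither array. Col4a3, the neighbour of Col4a4, was well above background on neither array.

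The beaded class held the 1 gene beyond 1.5-fold. Of its 7 genes 4 were measured, with differences from -0.20 to 0.71 and a median of 0.19. Col6a5, an additional type VI chain, had 116 units in KPC-exo and 42.1 units in MPDC-exo myotubes, or levels of -2.46 in KPC-exo and -3.17 in MPDC-exo. Its difference of 0.71, or 1.64-fold, was higher than those of 97.8% of all measured genes. It was 0.15 with normexp, whose added 50 units can lower so dim a probe. The other 2 probes of Col6a5 were well above background on neither array. Of the main type VI chains, Col6a1 had 7.54 in KPC-exo and 7.50 in MPDC-exo myotubes, a difference of 0.04. Col6a2, its neighbour on chromosome 10, had 4.05 in KPC-exo and 4.25 in MPDC-exo myotubes, a difference of -0.20. Col6a3 had 3.63 in KPC-exo and 3.29 in MPDC-exo myotubes, a difference of 0.34. These 3 chains assemble into 1 molecule, and the difference of Col6a2 minus that of Col6a3 was -0.54 at their brightest probes. Other measured probes of Col6a2 had 0.25 and 0.12, and that of Col6a3 had -1.04, so this gap depends on the probe chosen. The Col6a1 spot lay on background flagged as non-uniform on the KPC-exo array, and that gene has no value when such spots are left out.

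Col6a4, Col6a5 and Col6a6 lie side by side on chromosome 9. Col6a4 was well above background with KPC-exo only, with 78.3 units there and 32.9 units in MPDC-exo myotubes, which gives at least 1.42-fold higher. The other probe of Col6a4 and the probe of Col6a6 were well above background on neither array. Col28a1, a beaded collagen of nerve, was also not well above background, with 39.0 units in KPC-exo and 6.38 units in MPDC-exo myotubes at its brighter probe.

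Few FACIT collagens were detected. Of 9 genes 2 were measured, both in the brightest bin. Col12a1, which binds along type I fibrils and is expressed in muscle connective tissue, had 4.90 in KPC-exo and 4.83 in MPDC-exo myotubes, a difference of 0.08. The spot behind that value lay on background flagged as non-uniform on the KPC-exo array, and when such spots were left out the gene took its value from another probe, at -0.71, past 1.5-fold lower. Col16a1 had 3.56 in KPC-exo and 3.54 in MPDC-exo myotubes, a difference of 0.02. Col20a1 was the 1 collagen well above background with MPDC-exo only, with 17.1 units in KPC-exo and 54.4 units in MPDC-exo myotubes, or at least 1.93-fold lower. Col9a2, a cartilage FACIT, was well above background with KPC-exo only, with 63.7 units there and 24.2 units in MPDC-exo myotubes, at least 1.22-fold higher. Col9a1, Col9a3, Col14a1, Col19a1 and Col22a1, the last a collagen of the muscle to tendon junction, were well above background on neither array. Across all genes, 3.42% passed this limit with KPC-exo only and 1.65% with MPDC-exo only, so the counts of 4 and 1 collagens do not compare the groups.

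Of the 4 transmembrane collagens 3 were measured. Col13a1, which takes part in the neuromuscular junction, had -3.31 in KPC-exo and -3.51 in MPDC-exo myotubes, a difference of 0.20 that was -0.20 with normexp. That probe, assigned to an Ensembl transcript, was dim, at 64.5 units in KPC-exo and 33.5 units in MPDC-exo myotubes. The other probes of Col13a1 were well above background on neither array. Col17a1, a hemidesmosome collagen of skin epithelium, had -3.42 in KPC-exo and -3.00 in MPDC-exo myotubes, and its difference of -0.42 was the lowest of the 28. Its other measured probe had 0.17. Col23a1 had 2.12 in KPC-exo and 1.79 in MPDC-exo myotubes, a difference of 0.34 at its brightest probe. Col25a1, which takes part in motor innervation of muscle, was well above background on neither array.

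The remaining classes are small. Col8a1 and Col8a2 encode the short-chain network collagen of vessels and cornea. Col8a1 had 6.87 in KPC-exo and 7.11 in MPDC-exo myotubes, a difference of -0.23. Col8a2 had 2.21 in KPC-exo and 1.94 in MPDC-exo myotubes, a difference of 0.27, so the partners lay 0.50 apart. Col10a1, the collagen of hypertrophic cartilage, had -3.10 in KPC-exo and -2.93 in MPDC-exo myotubes, a difference of -0.17. Col7a1, which forms the anchoring fibrils of skin, had -0.42 in KPC-exo and -0.40 in MPDC-exo myotubes, and Col18a1, the source of endostatin, had 3.35 in KPC-exo and 3.32 in MPDC-exo myotubes. Col26a1 had -1.78 in KPC-exo and -1.97 in MPDC-exo myotubes, a difference of 0.19, or -0.02 with normexp. Col15a1, the other multiplexin, was well above background on neither array.

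Different probes of a collagen gene often disagreed. Of the 91 collagen probes 44 were measured, and 11 genes had at least 2 measured probes. In 2 of the 11, Col26a1 and Col4a5, all measured probes had the same sign, against 46.2% of all 5736 such genes, and the 2 probes of Col26a1 share 39 bases. The range between the probes of a gene was at least 1.5-fold in 6 of the 11 collagens, against 27.4% of all such genes. The pooled SD between probes was 0.60 for the collagens, against 0.36 over all genes. The widest range, 2.20 in Col23a1, rests on a dim probe described below and adds more to the 0.60 than any other gene. Neither the shares nor the SDs were matched for signal or for the number of probes of a gene, so they do not set collagens apart.

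In Col1a2 the brightest probe had a difference of -0.06, at 182241 units in KPC-exo and 113150 units in MPDC-exo myotubes. Measured probes assigned to Ensembl transcripts were far dimmer. They had 0.44, at 435 units in KPC-exo and 191 units in MPDC-exo, and 0.71, at 167 units in KPC-exo and 60.9 units in MPDC-exo. In Col3a1 the brightest probe had -0.29, at 100411 units in KPC-exo and 73181 units in MPDC-exo myotubes. Probes of Ensembl transcripts, on chromosome 1 from 45373784 to 45373843 and from 45381765 to 45381824, had 0.81 and -0.46. Those too were far dimmer, the first at 588 units in KPC-exo and 200 units in MPDC-exo. The second had 217 units in KPC-exo and 177 units in MPDC-exo. In Col6a3 the helix probe printed above had 63.9 units in KPC-exo and 78.2 units in MPDC-exo myotubes, a difference of -1.04, against 0.34 at the brightest probe. In Col23a1 a probe that crosses exons, on chromosome 11 from 51381425 to 51382971, had 67.2 units in KPC-exo and 146 units in MPDC-exo myotubes, a difference of -1.86, while the others had 0.34 and -0.03. The local background of that spot was flagged on the KPC-exo array. In Col12a1 a probe that crosses exons had -0.71, and its signal of 1498 units in KPC-exo and 1458 units in MPDC-exo myotubes was not near background.

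**Figure D4:**
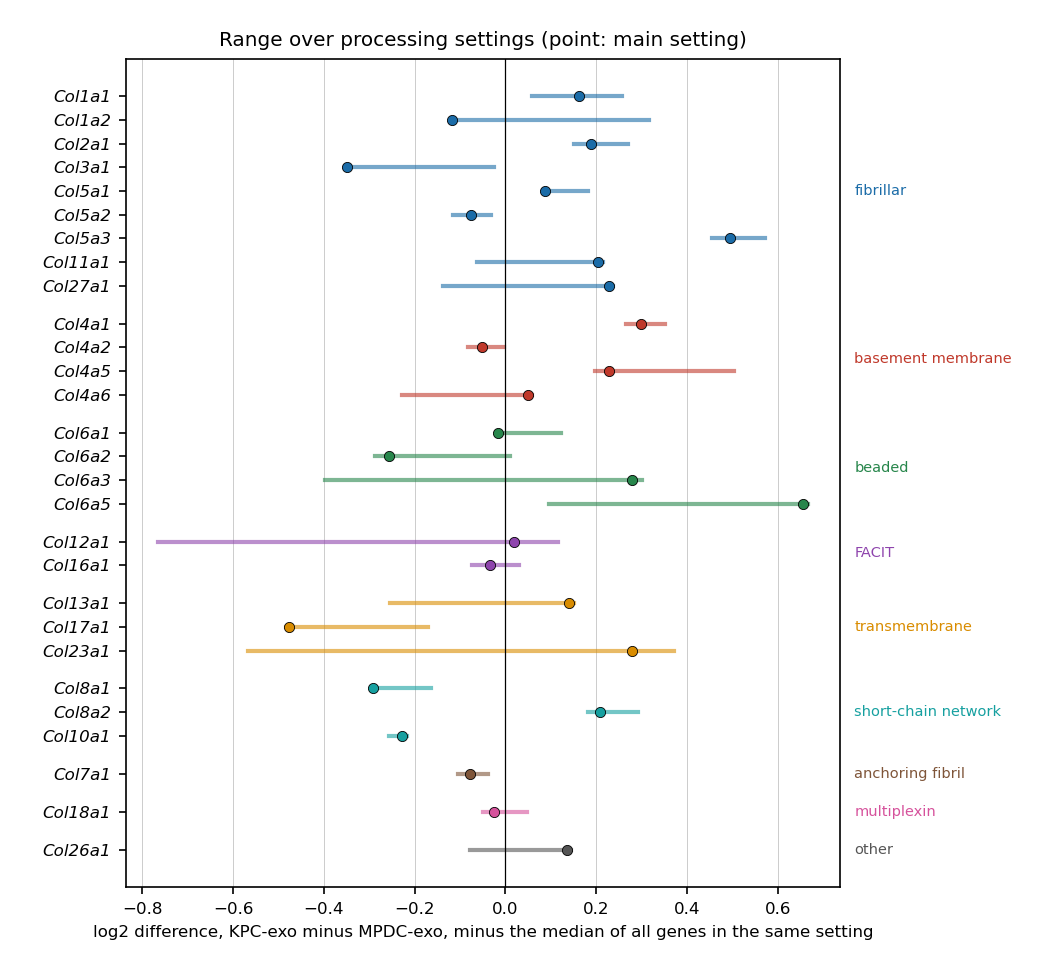
Log2 difference, KPC-exo minus MPDC-exo, of each measured collagen gene minus the median of all measured genes, for the main setting (points) and over 11 settings of scaling, background and probe choice (lines). The lines of 15 of the 28 genes stay on one side of 0, 8 above it and 7 below it. All remaining lines cross it, among them those of Col12a1, Col23a1, Col6a3 and Col1a2. Those of the dim genes Col4a6, Col11a1, Col13a1, Col26a1 and Col27a1 cross it only with normexp, which adds 50 units to every spot. Centring on the median, on detected probes or on spike-ins shifts every gene alike. Those settings cannot move a gene here, so they say nothing of its stability. The value table gave values close to those of quantile normalization.

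The enzymes and chaperones that make collagen gave a similar picture. Of 39 genes of collagen synthesis and processing 36 were measured, with a median difference of 0.09. At their brightest probes 0 were at least 1.5-fold higher and 1 lower, against 3.73% and 3.70% of all measured genes. The lower gene was Loxl2, a lysyl oxidase that cross-links collagen. It had 321 units in KPC-exo and 312 units in MPDC-exo myotubes, a difference of -0.71, with -0.11 at its other probe. Other measured probes of some genes of this list were past 1.5-fold, the furthest at -0.85 and 0.61. P3h4, a partner of prolyl 3-hydroxylase, had 0.42, the lysyl hydroxylase gene Plod1 0.39 and the lysyl oxidase gene Loxl4 0.37. Serpinh1, the collagen chaperone of the endoplasmic reticulum, had levels of 5.86 in KPC-exo and 5.92 in MPDC-exo myotubes, a difference of -0.06. P4hb, a subunit of prolyl 4-hydroxylase, had -0.04, the cross-linking enzyme gene Lox -0.10 and Pcolce, which enhances removal of the C-propeptide, -0.15. A probe that keeps the name Ctage5, an older name of the collagen export gene Mia2, was 2.71-fold higher at 152 units in KPC-exo and 33.4 units in MPDC-exo myotubes. The MPDC-exo signal of this probe lay close to the lowest level well above background on that array. Mia2 itself had -0.02 at its brightest probe.

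The TGF-beta pathway is known to induce fibrillar collagen genes. At the brightest probes, this pathway, proteins that bind collagen and collagen receptors held no measured gene 1.5-fold apart. Other measured probes of some of these genes were past it, among them a probe of Bgn at 0.79 and one of Sdc1 at -1.12. The 15 measured genes of collagen-binding matrix proteins had a median of 0.05. Fn1, which encodes fibronectin, had -0.47, with its 4 probes from -1.68 to 0.88, and the small proteoglycan genes had 0.37 (Dcn), 0.35 (Prelp) and -0.33 (Bgn). The 10 measured receptors had a median of -0.04, with Cd36 at 0.36, Mrc2, a receptor for collagen uptake, at -0.18, Sdc1 at 0.17 and Itgb1 at -0.12. The collagen-binding kinase genes Ddr1 and Ddr2 had -0.03 and 0.10. The 18 measured TGF-beta genes had a median of 0.10, with Tgfbr3 at 0.31, Tgfbi at -0.24 and Smad3 at 0.22. Tgfb1 had levels of 2.68 in KPC-exo and 2.61 in MPDC-exo myotubes, a difference of 0.07.

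Fibroblast markers, whose cells are a main source of collagen in tissue, were 7 of 8 measured, with Thy1 well above background on neither array. Their summed signal was 576110 units in KPC-exo and 450948 units in MPDC-exo myotubes before scaling, and their median difference was -0.27, with 0 of the 7 being 1.5-fold apart. The values were -0.53 for S100a4, 0.37 for Dcn, which is also among the collagen-binding genes, -0.35 for Gsn and -0.30 for Dpt. The 8 muscle markers summed to 195689 units in KPC-exo and 120228 units in MPDC-exo myotubes and had a median of -0.14, with Ckm at -0.43, Des at -0.41, Tnnt3 at 0.34 and Myog at -0.16. The epithelial list summed to 984.6 units in KPC-exo and 611 units in MPDC-exo myotubes, and its 2 measured genes had -0.15 (Sox9) and 0.13 (Krt19). The 5 macrophage markers summed to 3718 units in KPC-exo and 2032 units in MPDC-exo myotubes, and 4 were measured, with Csf1r at -0.87, Cd68 at 0.63, Ptprc at 0.29 and Lyz2 at 0.22, and Adgre1 well above background on neither array. The 4 endothelial markers summed to 250.2 units in KPC-exo and 149 units in MPDC-exo myotubes, with Kdr, at -0.07, the one measured. The part of these marker differences in the collagen values was not tested.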

How the data were processed

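Per the labels, Cy3-labelled cRNA of total RNA was hybridized to 1-colour Agilent arrays. Per the submitters' processing notes and the scanner files' headers, Agilent Feature Extraction 10.7.1.1 subtracted background and removed spatial trends. The deposited scanner files hold spot intensity, not normalized between arrays, with positions on mm9. The series value table holds log2 values deposited without a stated method. They correlated at 1.00 with each array's scanner signal and both columns had a median of 4.88, so scale and direction are settled, and it was an alternative only.

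For the main values, spots flagged as non-uniform or population outliers were left out (166 on the KPC-exo and 102 on the MPDC-exo array), the remaining log2 processed signals were averaged by probe, and the 75th percentile of the array was taken off. No spot was saturated. Of probes with values, 47.6% on the KPC-exo and 45.9% on the MPDC-exo array were well above background. A gene well above background on 1 array in any probe and on the other in none received a bound, its bright level against the higher of the other array's lowest level well above background and the probe's own level there. These bounds cover no spot error. RefSeq accessions of GRCm38.p6 named 32989 of 56605 probes, and others kept the files' names. The reference gave names and neighbours only.

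The code that counts genes past a fold was tested on simulated data, which says nothing of the real error. Every collagen gene is accounted for. From each other list the 4 measured genes with the largest absolute difference are named, plus a fixed set of 10 genes, and 1 allele and 1 gene are not reported here. The members and lists were chosen with earlier results of these data known. Alternatives were normexp (offset 50), centring on the median, on 7 spike-in probes or on detected probes, cyclic loess or quantile normalization, other filters, the mean over probes, flagged spots kept, the value table, a 2-fold threshold and, chosen after seeing the data, leaving out spots on background flagged as non-uniform, of which the KPC-exo array had 5411 and the MPDC-exo array 840. The number of arrays limits precision. Python 3.11.15, numpy 2.4.6, pandas 2.3.3, matplotlib 3.10.9, R 4.3.3 and limma 3.58.1 were used.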

Additional observations from a re-analysis of the deposited data

How the results depend on the processing

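No paired analysis was possible because each group has 1 array, and no replicate could be left out. The median difference of the collagens stayed between 0.04 and 0.16 in all settings but one, centring on spike-in probes, where it was 1.12 and the median of all genes 1.06, since that setting shifts every gene alike. There 27 collagens lay 1.5-fold or more above MPDC-exo and 0 below, against 93.4% and 0.336% of all measured genes. With no filter on dim probes 5 of 44 collagens were higher and 3 lower, against 8.22% and 7.13% of all 37304 genes. With the stricter filter 0 of 20 were higher, against 1.39% of 12506 genes. At 2-fold 0 were higher, against 0.730% of all measured genes. With background-flagged spots left out 1 of 27 was lower, Col12a1, against 4.0% of all genes measured there. In normexp the 1 higher gene was Col5a3 in place of Col6a5, a dim gene that the 50 units added there can lower. Of all genes 1.62% were higher in normexp. Besides centring on spike-ins, 8 of the values of single genes over all settings moved by more than 0.36, the SD between probes. Col6a5, the 1 gene past 1.5-fold in the main values, changed sign in no setting that gave it a value. Other genes did change sign, among them Col12a1, Col13a1, Col23a1 and Col6a3. Over all 16989 measured genes, the counts past 1.5-fold were 633 higher and 629 lower in the main values. They were 275 and 436 with normexp, 497 and 742 centred on the median, and 493 and 746 centred on detected probes. With cyclic loess they were 461 and 772, and centred on spike-ins 15861 and 57. Without a filter they were 3068 and 2660 of 37304 genes, and with the stricter one 174 and 257 of 12506. Signal near background limits the 8 dim collagens and the 5 bounds.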
